A study of Homo sapiens with 4 samples.

Results

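The TGF-beta branch of signalling was examined through 9 genes: the ligand genes INHBA, TGFB1 and TGFB2, the latency gene LTBP1, the receptor gene TGFBR1, the SMAD genes SMAD3 and SMAD7, the corepressor gene SKIL and the target gene TGFBI. They were picked by symbol as a pathway list, with no threshold on a measured value, from 62649 gene identifiers. This list and the further one below were chosen with earlier results of these data known. Counts of calls among them are therefore not independent of the data. All 9 passed the filter on low counts and were among the 24961 genes tested. A further 75 genes of the same pathway, sorted by role, were listed beside them, and 72 of these were tested.

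TGF-beta and activin ligands are secreted dimers that join type I and type II serine/threonine kinase receptors on the cell surface. The type I receptor then phosphorylates SMAD2 and SMAD3, which enter the nucleus with SMAD4 and change transcription, among other genes of the pathway's own inhibitors. TGF-beta itself leaves the cell in a latent complex with an LTBP protein that stores it in the matrix, whereas activin is held back by follistatin. In melanoma the pathway is known for its part in invasive, matrix-producing cell states.

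The RNA came from A375, a human melanoma line with an activating BRAF mutation. The 2 resistant libraries were made from A375 cells grown under vemurafenib, a drug that blocks mutant BRAF, with the concentration raised stepwise from 0.1 to 6.4 µM. The 2 control libraries came from A375 cells labelled as controls, and parental cells are the line from which the resistant cells were derived. The labels name no added allele and leave unsaid whether the resistant cells are a clone or were kept on vemurafenib until harvest. The protocol speaks of harvest following drug treatment and describes sorafenib, pioglitazone and DMSO vehicle, but no label gives any of these to a library. Replicates are called biological with no mention of separate cultures. The p-values therefore reflect variation among these 4 libraries, some of which may be technical.

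Counts assigned to genes totalled 68022689 and 85197524 in resistant replicates 1 and 2, and 72290468 and 87178097 in control replicates 1 and 2. Each count of control replicate 1 was even, so its alignments may have been counted 2 times, which was not tested; its true depth would then be lower than its total. With its counts halved, each member kept its direction and none passed in edgeR. Pearson's r over 10089 genes (log2 CPM, genes not being independent replicates) was 0.978 between the resistant libraries and 0.961 between the controls. Control replicate 1 correlated with the resistant libraries at 0.912 and 0.921, and control replicate 2 did so at 0.956 and 0.965. The melanoma label was checked with 8 marker genes, whose summed level was 1417 and 1283 CPM in the resistant libraries and 1065 and 1632 CPM in the controls. The level came mainly from SOX10 and ERBB3, while the pigment enzyme genes TYR and DCT stayed under 1 CPM in each library. The 6 markers of fibroblasts, a cell type rich in TGF-beta targets, summed to 13.2 and 11.6 CPM in the resistant libraries and to 15.3 and 12.0 CPM in the controls. The 4 keratinocyte markers summed to 58.5 and 89.5 CPM in the resistant libraries and to 49.2 and 62.6 CPM in the controls, with KRT5 and KRT1 under 1 CPM. The leukocyte markers PTPRC and CD3E stayed under 1 CPM, as did CD68. Of the exonic bases of CD68, 85.6% overlap other genes, where shared reads were dropped, so its level may be understated. How many of its reads were dropped was not measured.

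In resistant against control cells, LTBP1 and INHBA had the highest levels relative to control among the 9 genes and TGFBI the lowest, but no member passed edgeR's quasi-likelihood test after Benjamini-Hochberg adjustment over all 24961 genes. That threshold, an adjusted p of 0.05, was met by 1.09% of all genes tested (0.577% higher and 0.513% lower). At an unadjusted p under 0.05, 3 members were higher (LTBP1, INHBA and TGFBR1) and 1 was lower (TGFBI), where 13.5% of all genes met that mark (6.14% higher and 7.32% lower). DESeq2 called INHBA higher (adjusted p = 0.0485, close to the threshold) and TGFBI lower (adjusted p = 0.0280). Of all genes it tested, DESeq2 called 3.04% higher and 3.42% lower (6.46% in all). The members' median log2 fold change was 0.085, against 0.0056 over all genes, and both resistant libraries lay outside the range of the controls for 5 of 9 members, 3 above and 2 below, against 44.6% of all genes (22.4% above and 22.2% below).

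Levels per length ordered the members as follows, in RPKM, which is the TMM-normalised CPM (reads of a gene relative to the scaled library total) divided by exonic length. In resistant cells INHBA stood first (142 and 96.8 RPKM), before TGFB1 (54.8 and 68.8), SMAD3 (26.7 and 23.3), TGFBI (18.2 and 20.3), SKIL (7.0 and 5.66), LTBP1 (4.48 and 4.49), SMAD7 (3.57 and 4.09), TGFBR1 (3.89 and 3.11) and TGFB2 (0.0395 and 0.0400). Only SMAD7 and TGFBR1 overlapped among the neighbours in that order. In control cells INHBA (31.9 and 78.5 RPKM) overlapped TGFB1 (56.6 and 66.3), and TGFBI (27.1 and 38.6) stood above SMAD3 (25.4 and 25.0). They were followed by SKIL (5.05 and 6.88), SMAD7 (4.64 and 4.96), TGFBR1 (2.48 and 2.59), LTBP1 (0.422 and 1.69) and TGFB2 (0.00924 and 0.0630), with SKIL and SMAD7 apart.

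**Figure D1:**
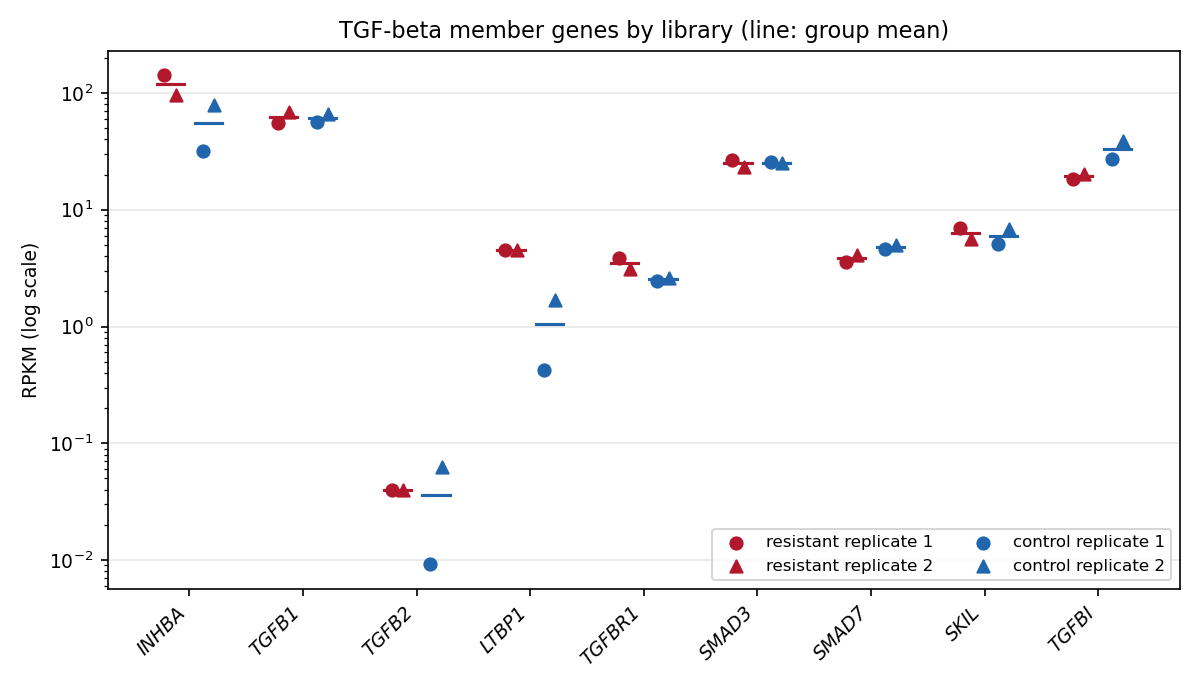
Level of each member gene in RPKM (log axis) in the 2 resistant libraries (red, left of each pair) and the 2 control libraries (blue), with a short line at the group mean. LTBP1 is at 4.48 and 4.49 RPKM in the resistant libraries and at 0.422 and 1.69 in the controls, while TGFB1 and SMAD3 overlap between the groups.

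INHBA encodes the beta A chain of activin A. It had 1174 and 802 CPM in resistant replicates 1 and 2, against 264 and 650 CPM in control replicates 1 and 2. Both resistant libraries were above both controls, with control replicate 1 the lowest of the 4. The fitted log2 fold change was 1.11 (95% interval 0.19 to 2.03, edgeR adjusted p = 0.269), a 2.16-fold higher level on average. Relative to control replicate 2 alone, the mean of the resistant libraries was 1.52 times as high, and relative to control replicate 1 it was 3.74 times as high. Leaving out control replicate 1 gave INHBA a log2 fold change of 0.60, and leaving out control replicate 2 gave 1.91, where it passed (edgeR adjusted p = 2.7e-04). In that fit edgeR called 1146 genes higher and 1020 lower, and a group left with 1 library, there and in each such fit, is assumed to vary as the other group does. An antisense gene, INHBA-AS1, covers 3.0% of the exonic bases of INHBA, and the counting took no account of strand. INHBA-AS1 itself had 5.40 and 4.68 CPM in the resistant libraries and 2.01 and 3.14 CPM in the controls, levels far under those of INHBA.

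TGFB1 encodes the most widely expressed TGF-beta. It had 179 and 224 CPM in the resistant libraries, against 185 and 216 CPM in the controls. The groups overlapped fully, with a log2 fold change of 0.0077 whose 95% interval ran from -0.43 to 0.45 (edgeR adjusted p = 0.993).

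TGFB2, whose product needs the coreceptor betaglycan for strong binding, was close to the detection limit. Its counts were 17 and 20 in the resistant libraries, against 4 and 33 in the controls, where 3 counts correspond to between 0.0344 and 0.0441 CPM. The resistant libraries lay between the controls, and the interval of the log2 fold change, from -1.88 to 2.11, is too wide to show a change at this depth (adjusted p in edgeR, 0.975). Of the exonic bases of TGFB2, 34.2% overlap TGFB2-OT1 or TGFB2-AS1, so reads there were left out and its RPKM are understated.

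LTBP1 encodes latent TGF-beta binding protein 1, which ties the latent ligand to the matrix. It had 33.0 CPM in each resistant library, against 3.10 and 12.4 CPM in control replicates 1 and 2. The resistant libraries matched each other closely and lay above both controls, while the controls themselves were 4.01-fold apart. The log2 fold change was 2.08 (95% interval 0.84 to 3.33, edgeR adjusted p = 0.130), or 4.23-fold. It was 1.41 when control replicate 1 was left out and 3.41 when control replicate 2 was. DESeq2 gave LTBP1 an adjusted p of 0.157. The authors' deposited table, which names no comparison, lists LTBP1 alone among the 9 genes, with a log fold change of 2.11.

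Sequence just upstream of the starts is shown for LTBP1, INHBA and TGFBI, the members with the largest differences in either direction, as 250 bases before the RefSeq start on GRCh38.p14, 5′ to 3′ on the gene's strand. Capitals mark 2 motifs chosen with the data in view: CAGAC (or its reverse complement), a core bound by SMAD3 and SMAD4, and TGACGTCA, the cyclic AMP response element. TGANTCA, the AP-1 site, was searched too, on both strands. The LTBP1 window is chr2:32946703-32946952 (plus strand), that of INHBA chr7:41703091-41703340 (minus strand) and that of TGFBI chr5:136028738-136028987 (plus strand). None of the 3 overlaps an exon of the annotation used for counting.
LTBP1: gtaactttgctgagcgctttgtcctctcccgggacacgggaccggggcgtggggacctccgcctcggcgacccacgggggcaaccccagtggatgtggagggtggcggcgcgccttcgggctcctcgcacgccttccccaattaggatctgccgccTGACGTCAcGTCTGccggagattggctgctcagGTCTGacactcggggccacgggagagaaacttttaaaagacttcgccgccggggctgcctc
INHBA: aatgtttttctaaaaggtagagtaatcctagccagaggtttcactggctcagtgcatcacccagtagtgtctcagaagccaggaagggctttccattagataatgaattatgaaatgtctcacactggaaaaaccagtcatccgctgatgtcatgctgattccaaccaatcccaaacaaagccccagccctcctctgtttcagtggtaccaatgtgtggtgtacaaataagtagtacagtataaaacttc
TGFBI: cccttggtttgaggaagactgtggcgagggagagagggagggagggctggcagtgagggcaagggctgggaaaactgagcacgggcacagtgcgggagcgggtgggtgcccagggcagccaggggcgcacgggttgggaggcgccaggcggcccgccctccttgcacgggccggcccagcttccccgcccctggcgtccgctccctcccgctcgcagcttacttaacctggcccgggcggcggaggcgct
The LTBP1 window held 2 matches to CAGAC, both as the reverse complement, and 1 to TGACGTCA; no match overlapped another. None of the 3 motifs was found in the INHBA or TGFBI windows, which says only that these letters are not in these stretches. Over 35116 RefSeq windows of the same length, CAGAC was found in 38.0%, TGACGTCA in 1.65% and TGANTCA in 6.57%. Over the 24 windows of the 9 members, CAGAC was found for 6 members: LTBP1, SKIL, SMAD3, SMAD7, TGFB2 and TGFBR1. TGACGTCA was found for LTBP1 and SKIL, and TGANTCA for SMAD3. A member was counted if any of its windows held the motif, and some members have several windows. The shares over all RefSeq windows are per window, so the member counts cannot be set against them. Each of the 3 windows RefSeq gives for LTBP1 held CAGAC. The INHBA window lies inside the INHBA gene as annotated for counting, which reaches position 41705834, further upstream. The counts are per gene, so which start of LTBP1, INHBA or TGFBI was used in these cells was not measured.

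TGFBR1, the type I receptor gene, had 31.1 and 24.9 CPM in the resistant libraries, against 19.8 and 20.7 CPM in the controls. The groups did not overlap, and the log2 fold change was 0.47 (95% interval 0.019 to 0.92, edgeR adjusted p = 0.348). TGFBR2, the type II receptor that pairs with it, differed the other way, with 139 and 129 CPM in the resistant libraries and 178 and 247 CPM in the controls (log2 -0.67, interval -1.14 to -0.20, edgeR adjusted p = 0.188). Without control replicate 1, the log2 fold change of TGFBR2 was -0.88. The ratio of TGFBR1 to TGFBR2, both in RPKM, was 0.192 and 0.165 in the resistant libraries, against 0.0951 and 0.0717 in the controls, a ratio formed after the values were seen and not tested. TGFBR2 lies on chromosome 3 below 100 Mb, where 402 of the 435 genes averaging 1 CPM or more had a negative log2 fold change (median -0.59). The part of that stretch in the TGFBR2 value was not tested.

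SMAD3, which carries the signal to the nucleus, had 267 and 233 CPM in the resistant libraries, against 253 and 249 CPM in the controls. The controls lay between the resistant libraries, and the log2 fold change was -0.0082 with an interval from -0.40 to 0.39 (edgeR adjusted p = 0.992). SMAD7, the inhibitory SMAD that TGF-beta induces as feedback, had 14.1 and 16.1 CPM in the resistant libraries, against 18.3 and 19.6 CPM in the controls. It was lower in both resistant libraries than in either control, with a log2 fold change of -0.33 (interval -0.77 to 0.12, edgeR adjusted p = 0.536). SKIL encodes SnoN, a nuclear corepressor of SMAD complexes and itself a target of the pathway. It had 54.5 and 44.0 CPM in the resistant libraries, against 39.3 and 53.6 CPM in the controls, which overlapped (log2 0.085, interval -0.41 to 0.58, edgeR adjusted p = 0.923).

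TGFBI, a secreted matrix protein gene named for its induction by TGF-beta, had 140 and 157 CPM in the resistant libraries, against 209 and 298 CPM in the controls. Both resistant libraries were below both controls, and the log2 fold change was -0.77 (95% interval -1.26 to -0.28, edgeR adjusted p = 0.150), or 1.71-fold lower. TGFBI passed in DESeq2 (adjusted p = 0.0280). Its log2 fold change was -1.003 without control replicate 1 and -0.49 without control replicate 2. The feedback inhibitor gene SMAD7 and TGFBI were thus lower in both resistant libraries while LTBP1, INHBA and TGFBR1 were higher. None of these 5 differences passed over all genes in edgeR.

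Across the 72 other pathway genes tested, 2 fell and none rose at the edgeR adjusted threshold (1.09% of all genes in either direction), and 9 were higher and 10 lower at an unadjusted p under 0.05 (6.14% and 7.32% of all genes). DESeq2 called 6 higher and 5 lower of the 70 it tested (3.04% and 3.42% of all genes it tested). Their median log2 fold change was 0.043, against 0.0056 over all genes.

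The 2 genes that fell are both weakly expressed. NRROS, which anchors latent TGF-beta on the surface of myeloid cells, had 0.197 and 0.254 CPM in the resistant libraries, from 14 and 21 counts, against 2.79 and 1.55 CPM in the controls. It fell 9.52-fold (log2 -3.25, interval -4.33 to -2.18, edgeR adjusted p = 0.0312), and its adjusted p was 0.0510 without resistant replicate 1 and 0.151 without resistant replicate 2. ACVRL1, the endothelial type I receptor gene also called ALK1, had 0.661 and 0.653 CPM in the resistant libraries, against 4.83 and 2.31 CPM in the controls. It fell 5.42-fold (log2 -2.44, interval -3.43 to -1.44, edgeR adjusted p = 0.0497), with adjusted p values of 0.0958 and 0.233 without resistant replicates 1 and 2. The summed level of 3 endothelial markers was 3.01 and 2.30 CPM in the resistant libraries and 3.46 and 3.12 CPM in the controls. Of these markers, PECAM1 and CDH5 stayed under 1 CPM in each library. The part of such markers in the ACVRL1 value was not tested.

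Like INHBA, the activin chain gene INHBB and the antagonist gene FST were higher in both resistant libraries. INHBB, the beta B chain of activin, had 1.15 and 1.81 CPM in the resistant libraries, against 0.224 and 0.300 CPM in the controls (log2 2.49, interval 1.45 to 3.53, edgeR adjusted p = 0.0520). INHBB passed with DESeq2 (adjusted p = 5.1e-04) and with other size factors (edgeR adjusted p = 0.0494), but not without resistant replicate 2 (0.280). FST encodes follistatin, the secreted antagonist that binds activin, and had 239 and 451 CPM in the resistant libraries, against 63.4 and 163 CPM in the controls. The log2 fold change of FST was 1.60 (interval 0.55 to 2.66, edgeR adjusted p = 0.160). It was 1.07 when resistant replicate 2 was left out and 2.45 when control replicate 2 was. INHA, the inhibin alpha chain, had 3.50 and 3.43 CPM in the resistant libraries, against 3.94 and 4.07 CPM in the controls. Among the 8 ligand genes tested, TGFB3 had a log2 fold change of 0.34 and GDF11 one of -0.037. None of the 8 passed in edgeR (1.09% of all genes did). INHBB alone was at an unadjusted p under 0.05 (13.5% of all genes) and passed in DESeq2 (6.46% of all genes it tested).

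**Figure D2:**
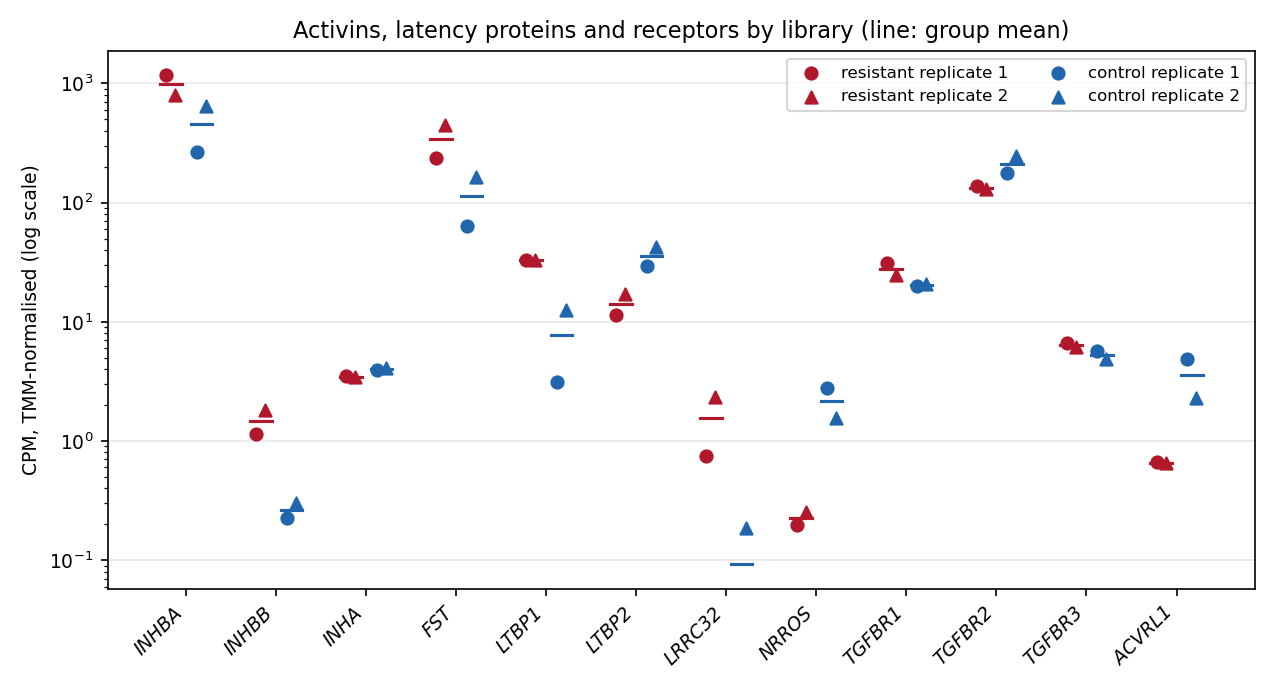
TMM-normalised CPM (log axis) of activin, latency and receptor genes in the 2 resistant libraries (red, left of each pair) and the 2 control libraries (blue), with a line at each group mean; control replicate 1 of LRRC32 has 0 counts and is not drawn. INHBA, INHBB, FST and LTBP1 lie higher in both resistant libraries than in both controls, and LTBP2, NRROS, TGFBR2 and ACVRL1 lie lower.

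Among latency and activation genes, LTBP2, a relative of LTBP1 that does not bind latent TGF-beta, had 11.4 and 17.0 CPM in the resistant libraries, against 29.3 and 42.3 CPM in the controls (log2 -1.34, interval -1.96 to -0.71, edgeR adjusted p = 0.0690). LRRC32, which encodes the surface anchor GARP, had 53 and 195 counts in the resistant libraries, against 0 and 16 in the controls (edgeR adjusted p = 0.133). ITGB8, a chain of an integrin that frees TGF-beta from its latent complex, had 273 and 145 CPM in the resistant libraries, against 72.0 and 122 CPM in the controls (edgeR adjusted p = 0.200). Of the 10 genes of this group that were tested, NRROS alone passed in edgeR (1.09% of all genes did). At an unadjusted p under 0.05 in edgeR, 2 were higher and 3 lower (6.14% and 7.32% of all genes). DESeq2 called 1 higher (ITGB8, adjusted p = 0.0259) and 2 lower (NRROS, and LTBP2 with an adjusted p of 3.2e-04). Over all genes DESeq2 tested, it called 3.04% higher and 3.42% lower.

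Of the 9 other receptor genes, ACVRL1 alone passed, in edgeR and in DESeq2 (1.09% and 6.46% of all genes each tested). TGFBR3, which encodes betaglycan, had a log2 fold change of 0.28, and the decoy receptor gene BAMBI one of 0.44 (edgeR adjusted p = 0.712 and 0.388). None of 7 other SMADs and cofactors passed in edgeR (1.09% of all genes did). SMAD6 alone was at an unadjusted p under 0.05 (13.5% of all genes) and passed in DESeq2 (6.46% of all genes it tested). SMAD2 and SMAD4 had log2 fold changes of -0.026 and -0.24, EP300 and ZFYVE9 of 0.044 and 0.042. SMAD6, an inhibitory SMAD that mainly restrains BMP signals, had 17.2 and 16.4 CPM in the resistant libraries, against 50.1 and 24.8 CPM in the controls (log2 -1.15, edgeR adjusted p = 0.145). It was -0.56 when control replicate 1 was left out and -1.57 when control replicate 2 was.

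None of 14 other inhibitors and regulators passed in edgeR (1.09% of all genes did). At an unadjusted p under 0.05 there were 3 (13.5% of all genes), and DESeq2 called 1 (6.46% of all genes it tested). LDLRAD4, which keeps SMAD2 and SMAD3 from their receptor, had 4.74 and 3.02 CPM in the resistant libraries, against 0.894 and 1.16 CPM in the controls (log2 1.92, interval 1.09 to 2.74, edgeR adjusted p = 0.0569). The corepressor gene SKI had a log2 fold change of -0.0091, FKBP1A, whose product binds type I receptors, one of -0.54, and DCN, the gene of decorin, one of -0.97 at means of 0.547 CPM in the resistant libraries and 1.06 CPM in the controls.

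Of 24 other target genes tested, none passed in edgeR, 4 were higher and 2 lower at an unadjusted p under 0.05 (6.14% and 7.32% of all genes), and DESeq2 called 3 higher and 1 lower (3.04% and 3.42%). Both resistant libraries lay above both controls in 9 of them and below in 2 (22.4% and 22.2% of all genes), and the median log2 fold change was 0.31, against 0.0056 over all genes. CCN2, a matrix signalling protein gene widely used to read the pathway, had 138 and 230 CPM in the resistant libraries, against 252 and 198 CPM in the controls. The groups overlapped, with a log2 fold change of -0.29 and an interval from -0.90 to 0.32 (edgeR adjusted p = 0.716). IGFBP3, an insulin-like growth factor binding protein gene, had 710 and 481 CPM in the resistant libraries, against 182 and 328 CPM in the controls (log2 1.22, edgeR adjusted p = 0.126, and 0.00349 in DESeq2). The growth factor gene PDGFB had 8.40 and 9.76 CPM in the resistant libraries, against 21.9 and 13.9 CPM in the controls (log2 -0.97, edgeR adjusted p = 0.146). TGM2, a transglutaminase gene, overlapped between the groups (log2 -0.93, adjusted p in edgeR 0.355), and was at -1.54 when resistant replicate 2 was left out and -0.40 when control replicate 1 was. With 1 control left out, several members and pathway genes passed in edgeR that did not with all libraries, LTBP1, INHBA and FST among them. A control group of 1 library shows no spread of its own, so no conclusion is drawn from such passes.

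**Figure D3:**
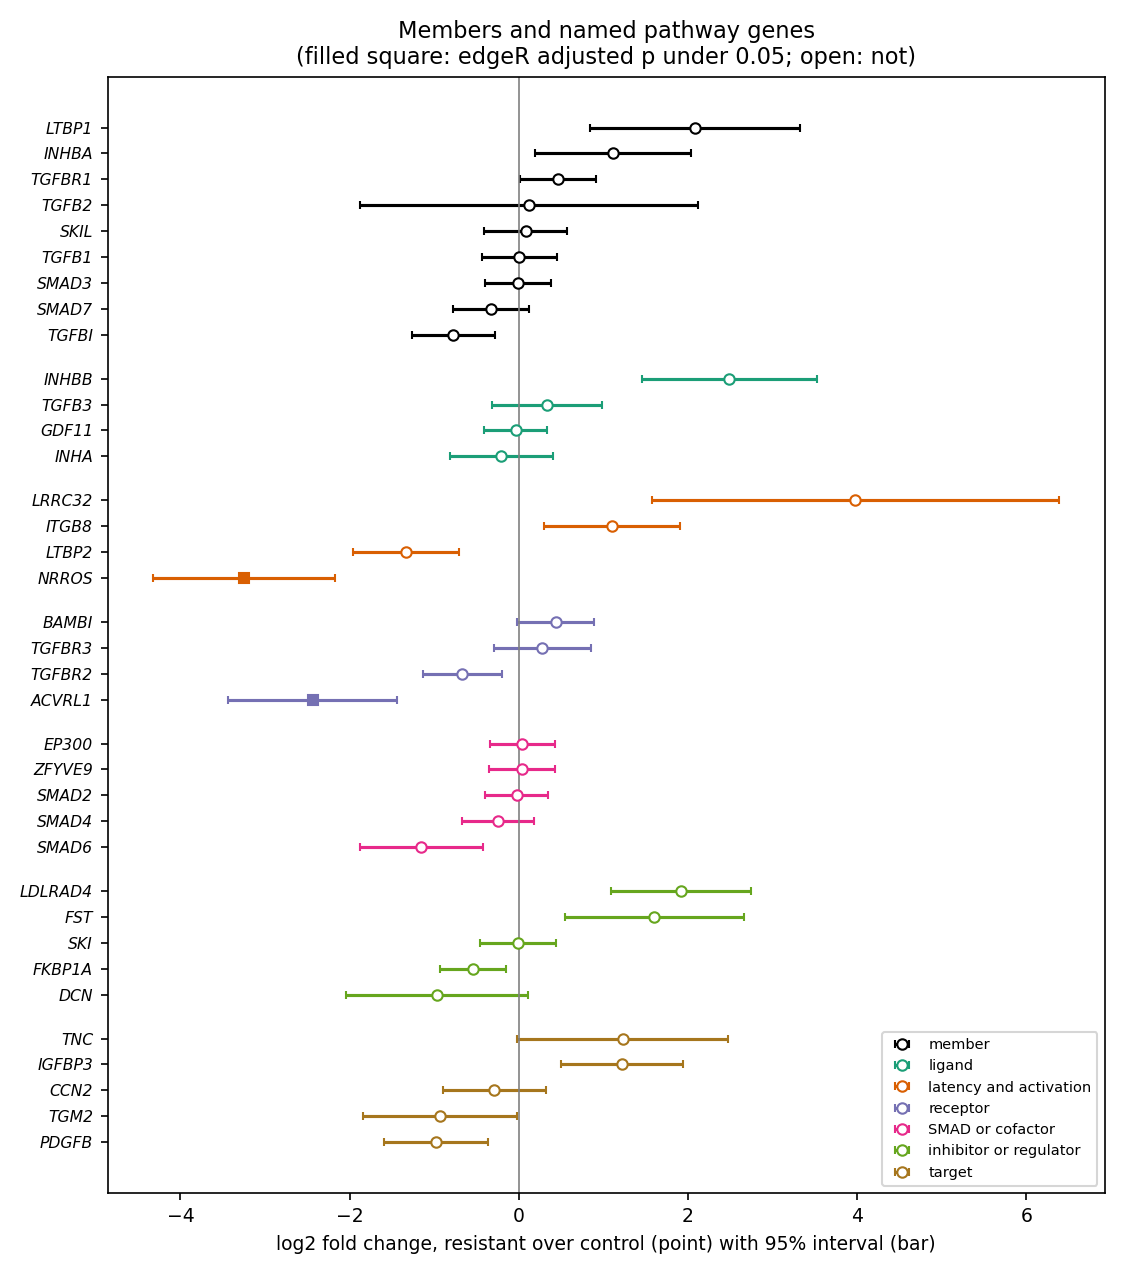
Log2 fold change, resistant over control (points), with 95% intervals (bars) for the 9 members and 27 other pathway genes by role; filled squares passed edgeR's adjusted threshold. NRROS and ACVRL1 are filled, and no member is.

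The controls differed from each other in many of these genes. Among the 70 members and pathway genes that averaged 1 CPM or more, 11 were over 2-fold apart between the controls, against 839 (5.39%) of all 15573 genes with such a mean. Control replicate 1 was the lower in 9 of the 70, among them LTBP1 and INHBA, against 568 (3.65%) of the 15573. It was also the lowest of the 4 libraries in those 9. The regulator gene PMEPA1, named here with FN1 after the values were seen, had 484 and 404 CPM in the resistant libraries, against 87.2 and 602 CPM in the controls. FN1, the fibronectin gene, had 340 and 325 CPM in the resistant libraries, against 91.5 and 380 CPM in the controls. TNC, the gene of the matrix protein tenascin C, had 1257 and 1177 CPM in the resistant libraries, against 202 and 837 CPM in the controls (log2 1.23, edgeR adjusted p = 0.381). For PMEPA1 and FN1 the resistant libraries lay below control replicate 2 and above control replicate 1. The resistant libraries were over 2-fold apart in 5 of the 70 genes, against 2.65% of all genes. What set the controls apart was not tested.

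**Figure D4:**
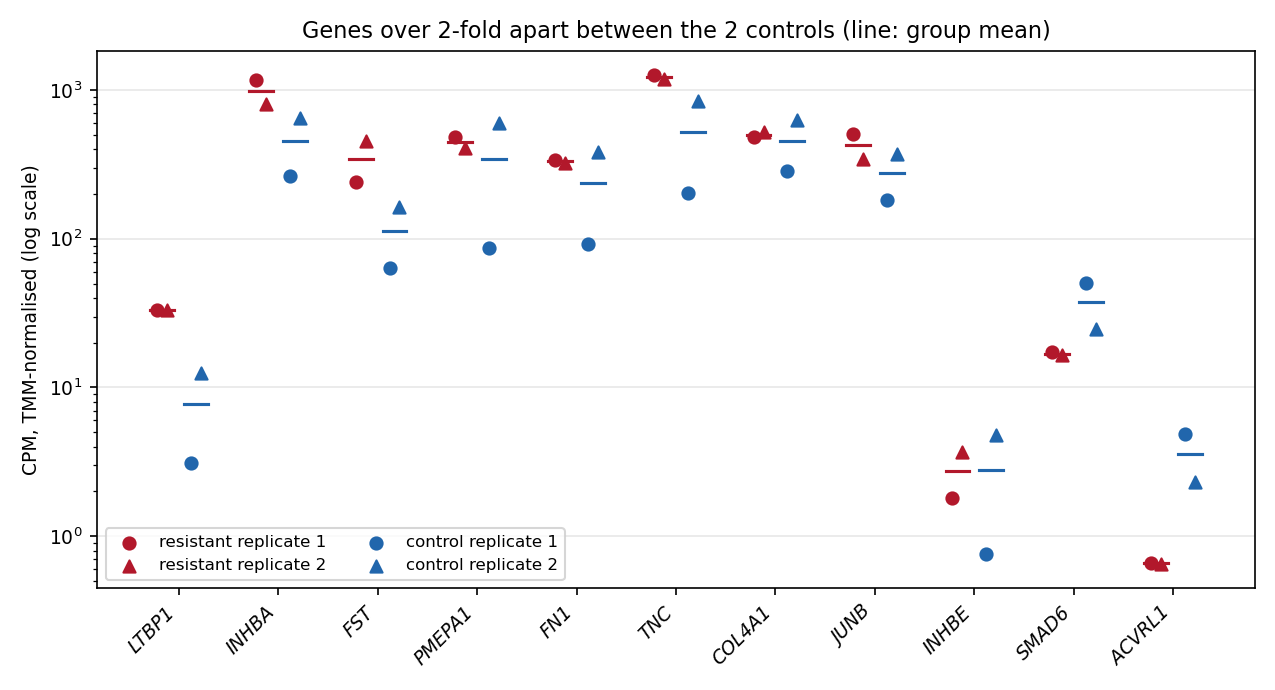
TMM-normalised CPM (log axis) of the 11 members and pathway genes over 2-fold apart between the controls, in the 2 resistant libraries (red, left of each pair) and the 2 control libraries (blue), with a line at each group mean. Control replicate 1 (blue circle) is the lowest of the 4 libraries in the first 9 genes and the highest in SMAD6 and ACVRL1.

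The genes whose levels over the 4 libraries were most like those of LTBP1 and TGFBI, the members with the smallest edgeR p, were found by Euclidean distance of mean-centred log2 CPM across the 9942 genes averaging 10 CPM or more. For LTBP1, the 3 nearest included GRB10 (distance 0.469) and B3GAT1 (0.524). GRB10, which encodes an adaptor of receptor tyrosine kinases, had 100.5 and 112 CPM in the resistant libraries, against 13.9 and 54.0 CPM in the controls. For TGFBI they were AEBP1 (0.123), SH3TC2 (0.133) and PPM1M (0.148). AEBP1 had 112 and 136 CPM in the resistant libraries, against 187 and 256 CPM in the controls.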

How the data were processed

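PolyA-selected, strand-specific, paired-end libraries were sequenced, per the labels' protocols. Per the file headers, the authors counted reads per gene with featureCounts 2.0.0 on duplicate-marked alignments against GENCODE release 42, giving it no option beyond the annotation and the output; STAR, DESeq2 and GRCh38 are named in the submitters' processing notes. By that program's defaults, strand was ignored, mates were counted singly and reads shared by several genes were dropped. The deposited values are raw counts. Control replicate 1 holds 0 odd counts. Tables were assigned to libraries as GEO records them; the library numbers in the labels of the resistant samples differ from those in their tables' headers. A further deposited table gives log2 fold changes, a scale read from their closeness to the counts (1394 of 1396 matched genes have the same sign); it names no comparison and entered no test.

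Genes were filtered with filterByExpr, scaled by TMM and compared by the quasi-likelihood F test of edgeR (R 4.3.3, edgeR 4.0.16), two-sided, with group as the sole term and Benjamini-Hochberg adjustment over 24961 genes. The biological coefficient of variation was 25.5%. Intervals are 95% t intervals with the fit's degrees of freedom, SE being the fold change over the square root of F. Floors and intervals cover counting error and spread between libraries only. The steps were also run on simulated counts in which no library was set apart, so that run does not measure their accuracy on these libraries. DESeq2 1.42.0, other factors, filters, omitted libraries, a replicate block and a halved control replicate 1 served as alternatives.

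Members and lists were chosen with earlier results of these data known. Besides the members, named genes are those past the threshold, the 2 highest and 2 lowest of each role with at least 1 CPM, 8 fixed genes, and the 3 genes nearest to each of the 2 members with the smallest p. PMEPA1 and FN1 fall outside it, and 2 genes it selects are not reported here. Of 62649 identifiers, 62625 matched a symbol. Promoter sequences are from RefSeq (GRCh38.p14).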

Additional observations from a re-analysis of the deposited data

How the results depend on the processing

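Counts of calls moved widely with the processing; the cause was not tested unless given. Genes called higher and lower, 144 and 128 in edgeR, were 627 and 705 with DESeq2, 905 and 961 with no low-count filter, 94 and 82 with a filter at a mean of 1 CPM, and 33 and 31 with the replicate block; with 1 library left out they ranged from 7 to 1146 and from 9 to 1020. Members called higher and lower, 0 and 0 in edgeR, were 1 and 1 with DESeq2 and 2 and 1 with no filter; with 1 library left out they ranged from 0 to 2 and from 0 to 1. Other pathway genes called, 0 higher and 2 lower in edgeR, were 6 and 5 with DESeq2 and 11 and 8 with no filter. With RLE factors, with control replicate 1 halved and with the replicate block, 1 was called higher, and with the block 0 were called lower. With the filter at 1 CPM, 1 was called lower. With 1 library left out they ranged from 0 to 13 higher and from 0 to 6 lower. Same-numbered libraries shared no deviation (correlation of same-numbered deviations -0.006), which cannot tell whether they were prepared as pairs.

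Among members, direction changed with 1 library left out where the log2 fold change was near 0: TGFB1 (-0.17 to 0.17), TGFB2 (-0.66 to 2.08), SMAD3 (-0.10 to 0.088) and SKIL (-0.12 to 0.33), and SMAD3 was 0.011 with no filter. Among others it changed in CCN2 (-0.71 to 0.041), EP300 (-0.070 to 0.17), GDF11 (-0.10 to 0.033), SKI (-0.21 to 0.23), SMAD2 (-0.10 to 0.055) and ZFYVE9 (-0.016 to 0.11). SKI was 0.0050 with the replicate block and 0.0098 with no filter. LTBP1, INHBA, TGFBR1, SMAD7 and TGFBI kept their direction in each alternative run. Depth limits TGFB2 alone among the members.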
